A study of Mus musculus with 12 samples.

Results

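DNA topoisomerases relieve the twisting and tangling of DNA by cutting it, passing strands and sealing the cut again. The mouse genes chosen here by their symbols are *Top1*, *Top2a*, *Top2b*, *Top3a* and *Top3b*, 5 of the 20985 genes listed in the deposited tables, and all 5 were found in each table. The data are RNA-seq of testes from *Mael*-/- mice of the C57BL/6 strain at 3 months of age, without a *Mael*+ control. *Mael* belongs to the piRNA pathway that silences retrotransposons, and germ cells without it make the L1 protein ORF1p in excess. There were 12 libraries in 4 groups of 3 numbered replicates, and the labels do not say whether these came from separate animals. TOTAL is RNA of the clarified extract in 10 mM EDTA, which takes ribosomes apart, and INPUT is RNA of sucrose gradient fractions 5 to 8 of that extract. Beads coupled to an antibody against ORF1p pulled the IP RNA from INPUT, whereas the BO RNA stayed on beads only, without antibody. All groups came from testes of the same mutant genotype, so the values describe how RNA was distributed among the preparations and not an effect of the mutation. For the mutated gene itself, the authors' mean was 0.65 normalized counts in TOTAL and 0 in IP.

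Type I topoisomerases cut a DNA strand and type II enzymes cut a duplex and pass another through the break. *Top1* encodes the main type IB enzyme, which frees supercoils ahead of RNA and DNA polymerases. *Top2a* encodes the type II enzyme of dividing cells, needed to condense and separate chromosomes, and *Top2b* encodes its paralog, which is also made in cells that no longer divide. *Top3a* encodes a type IA enzyme that dissolves joined DNA molecules together with the BLM helicase and the RMI proteins. *Top3b* encodes a type IA enzyme that acts on RNA as well as DNA and binds TDRD3. In the testis, spermatocytes pass through meiosis, in which chromosomes recombine, condense and divide. What was measured is the mRNA of each gene and not the enzyme.

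The genes lie apart in the genome. In GRCm38 (mm10) with GENCODE M21, *Top1* lies on chromosome 2 from 160645888 to 160722764, *Top2a* on chromosome 11 from 98992943 to 99024189 and *Top2b* on chromosome 14 from 16365179 to 16435462. *Top3a* lies on chromosome 11 from 60740058 to 60777365 and *Top3b* on chromosome 16 from 16870736 to 16892990. All are protein coding. The longest annotated transcript has 3856 nt for *Top1*, 5221 nt for *Top2a*, 10335 nt for *Top2b*, 3741 nt for *Top3a* and 3511 nt for *Top3b*, where it is a form with a retained intron. The coding lengths of *Top2a* and *Top2b* are much closer, at 4584 and 4836 nt, and 5499 nt of the *Top2b* transcript are noncoding.

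Because *Top2a* is set beside close relatives, the sequences were compared to see whether a read of 75 nt could come from more than 1 of the genes. Over aligned positions, the coding sequences of *Top2a* and *Top2b* were 71.2% identical, and those of *Top3a* and *Top3b* 60.2%. The closest aligned windows of 75 nt, which show how far apart the most similar stretch is, are given in lower case, 5′ to 3′ on the coding strand, with capitals where the paralogs differ. The *Top2a* window runs from exon 13 into exon 14 (chr11:99010082-99010491, minus strand), and the *Top2b* window likewise joins exons 13 and 14 (chr14:16399017-16400073, plus strand).
Top2a: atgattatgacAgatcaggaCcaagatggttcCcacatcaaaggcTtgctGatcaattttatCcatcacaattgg
Top2b: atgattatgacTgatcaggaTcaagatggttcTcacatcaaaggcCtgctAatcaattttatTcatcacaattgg
These windows differ at 6 of 75 positions. The longest exact run common to the longest coding transcripts of *Top2a* and *Top2b* was 23 nt, also in coding sequence (exons 12 and 13 of *Top2a*, from 99010598 to 99010926, and of *Top2b*, from 16398744 to 16398910).
Shared run: cgagaagcctctcataaacagat
For the other pairs of members the longest shared run was between 11 and 14 nt. No stretch of 75 nt was shared between any of the 5 genes, so exact reads can be told apart. In sense, 36 of 10346 windows of *Top1* transcripts also occurred in transcripts of other genes. For *Top2a* these were 48 of 9118 windows, all from *Gm23451*, a snoRNA gene inside *Top2a*. For *Top2b*, *Top3a* and *Top3b* the number was 0. On the opposite strand, exons of *Rarb*, the retinoic acid receptor beta gene, share 1793 bases with exons of *Top2b*. The strand setting of the authors' counting is not given in the sources used here. *Rarb* was at 9.49 normalized counts in TOTAL and 4.53 in IP, against 7742 and 36360 for *Top2b*.

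The tables give the authors' mean normalized count of each group and no value per library. The authors' own standard errors and p-values were not used, so the ratios given here describe group means without an error or a test, and the depth behind them is unknown. A ratio is the IP mean over the other mean, each plus 1, on the log2 scale. Beyond 2-fold means a log2 ratio above 1 or below -1. The tables were normalized separately. Their IP means differed by a nearly constant factor over the 10267 genes whose IP mean reached 100 (1.30 to 1.32 between the BO and TOTAL tables, 0.987 to 1.01 between the INPUT and TOTAL tables), so levels were placed on the scale of the TOTAL table through the IP group.

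*Top2a* had the highest level per kilobase (kb) of the longest transcript among the 5 genes in each group. Its normalized count was 10425 in TOTAL, 19425 in INPUT, 17940 in BO and 84223 in IP. Per kb of the longest transcript these levels were 1997 in TOTAL, 3721 in INPUT, 3436 in BO and 16132 in IP. Among the 19888 genes with a transcript length, *Top2a* ranked 335th per kb in TOTAL, 57th in INPUT, 77th in BO and 7th in IP. It made up 0.0391% of the summed gene means in TOTAL and 0.280% in IP. The IP level thus stood above the other 3 groups, and the TOTAL level was the lowest.

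For *Top2b*, the normalized count was 7742 in TOTAL, 9047 in INPUT, 17110 in BO and 36360 in IP. The level per kb was 749 in TOTAL, 875 in INPUT, 1656 in BO and 3518 in IP. On the scale of the TOTAL table, *Top2b*, unlike *Top2a*, had its second highest level on the beads without antibody, above INPUT. This contrast depends on the scaling. Shifted to the median gene of each comparison, the log2 ratio of IP for *Top2a* was 1.42 against BO and 1.97 against INPUT. On that scaling *Top2a* was also higher in BO than in INPUT. *Top1* had a normalized count of 4881 in TOTAL, 3542 in INPUT, 3172 in BO and 9537 in IP, or 1266, 919, 823 and 2473 per kb. *Top1* was the member with a lower level in INPUT than in TOTAL. The type IA genes were the least abundant. *Top3a* had a normalized count of 829 in TOTAL, 1458 in INPUT, 916 in BO and 2319 in IP, and *Top3b* had 758, 1104, 536 and 1823. Per kb, *Top3a* and *Top3b* were nearly level in TOTAL, at 221 and 216, and in IP they stood at 620 and 519.

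**Figure D1:**
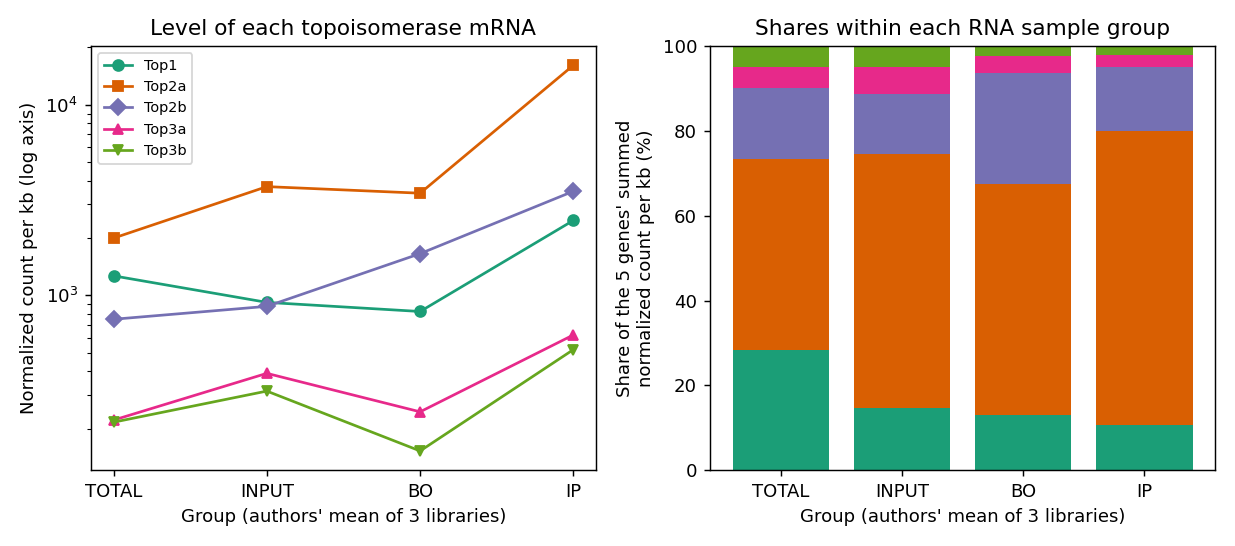
Left, normalized count per kb of the longest transcript (log axis) of each gene in TOTAL, INPUT, BO and IP, on the scale of the TOTAL table; points are the authors' means of 3 libraries, lines only join the points of a gene, and no error is available. Right, the share of each gene in the summed count per kb of the 5 genes (%), where the share of *Top2a* is 44.9% in TOTAL and 69.3% in IP.

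The order of the levels per kb in TOTAL was *Top2a*, *Top1*, *Top2b*, *Top3a* and *Top3b*. In IP, *Top2b* stood above *Top1* and the rest of the order was the same. With no spread between libraries, it cannot be said which neighbours in this order differ. The share of *Top2a* in the summed level per kb of the 5 genes was 44.9% in TOTAL, 59.8% in INPUT, 54.4% in BO and 69.3% in IP. The share of *Top1* went the other way, from 28.5% in TOTAL to 10.6% in IP. For *Top2b* the share was 16.8% in TOTAL, 26.2% in BO and 15.1% in IP. *Top3a* and *Top3b* together stayed below *Top2b* in all 4 groups. Per kb of coding sequence, which removes the long noncoding part of *Top2b*, *Top2a* was again first in each group, but by less: its level in TOTAL was 2274, beside 2121 for *Top1* and 1601 for *Top2b*. In IP the levels per coding kb were 18373 for *Top2a*, 7519 for *Top2b* and 4145 for *Top1*. Coding length also exchanged *Top3a* and *Top3b* in TOTAL, at 275 and 293, and *Top1* and *Top2b* in INPUT, at 1539 and 1871. Per kb of the median annotated transcript, *Top2b* stood above *Top1* and *Top3b* above *Top3a* in TOTAL. There the log2 ratio of *Top2a* was 0.36 to *Top2b*, 1.93 to *Top1*, 3.92 to *Top3b* and 5.36 to *Top3a*.

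IP and BO were compared to ask how the RNA on beads with antibody differs in make-up from the RNA held by beads alone. The ratio does not compare amounts of RNA. All 5 genes had a higher mean in IP, beyond 2-fold. The log2 ratio was 2.23 for *Top2a* (4.70-fold), 1.76 for *Top3b* (3.40-fold), 1.59 for *Top1* (3.01-fold), 1.34 for *Top3a* (2.53-fold) and 1.09 for *Top2b* (2.13-fold). This count of 5 stands beside a high background, since 43.9% of the 13638 genes compared, those whose mean reached 10 in the table, were above 2-fold and 11.2% were past it in the other direction. The median gene had a log2 ratio of 0.81 in IP vs. BO. Relative to that median, *Top2a* was at 1.42, *Top3b* at 0.95, *Top1* at 0.78, *Top3a* at 0.53 and *Top2b* at 0.28, so that on this scaling *Top2a* was the member still past 2-fold. On the same scaling, 2503 of the 13638 genes were above 2-fold and 3291 were past it in the other direction. Of all these genes, 9.43% had a higher ratio than *Top2a* and 40.8% a higher one than *Top2b*.

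IP and INPUT were compared to ask how the RNA pulled by the antibody differs from the fractions it was taken from. Here the type II genes stood together. The log2 ratio was 2.12 for *Top2a* (4.34-fold) and 2.01 for *Top2b* (4.02-fold), followed by 1.43 for *Top1* (2.69-fold). *Top3b* had a log2 ratio of 0.72 and *Top3a* of 0.67, both below 2-fold. Thus 3 of the 5 genes were above 2-fold, where 20.5% of the 14404 genes compared were, and 0 were past 2-fold in the other direction, where 14.6% of genes were. This balance over all genes turned with the scaling. With equal upper quartiles, 1604 genes were above 2-fold and 3533 past it in the other direction, and with equal sums 1701 and 3368. *Top2a*, *Top2b* and *Top1* stayed above 2-fold under both. The median gene was at 0.15. A higher ratio than that of *Top2a* was found for 2.40% of genes compared, and a higher one than that of *Top2b* for 3.13%.

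In IP vs. TOTAL, which spans both the fractionation and the pull-down, the spread among the genes was widest. The log2 ratio was 3.01 for *Top2a* (8.08-fold), 2.23 for *Top2b* (4.70-fold), 1.48 for *Top3a* (2.80-fold), 1.26 for *Top3b* (2.40-fold) and 0.97 for *Top1* (1.95-fold). Of the 5 genes 4 were above 2-fold, where 20.4% of the 14670 genes compared were, and 0 were past 2-fold in the other direction, where 26.2% of genes were. The value of *Top1* lies just under the threshold. Only 41 of the 14670 genes, 0.279%, had a higher ratio than *Top2a*, whereas 2.70% had a higher one than *Top2b* and 21.2% a higher one than *Top1*. The median gene was at -0.03. *Top2a* and *Top2b* were above 2-fold in all 3 comparisons, as were 1490 of the 13570 genes compared in all of them. The 3 comparisons share their IP libraries and are not independent of each other.

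**Figure D2:**
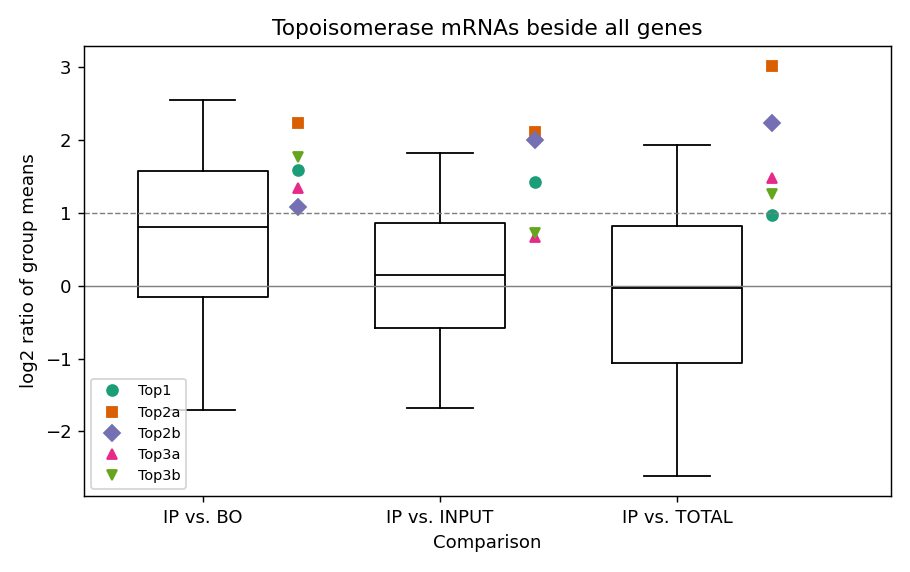
Log2 ratio of group means in the 3 comparisons for each topoisomerase gene (coloured symbols, right of each box) beside all genes compared (box, median and quartiles; whiskers, 5th to 95th percentile; dashed line, 2-fold). *Top2a* has the highest value of the members in each comparison, and *Top2b* changes place from last in IP vs. BO to second against INPUT and TOTAL.

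**Figure D3:**
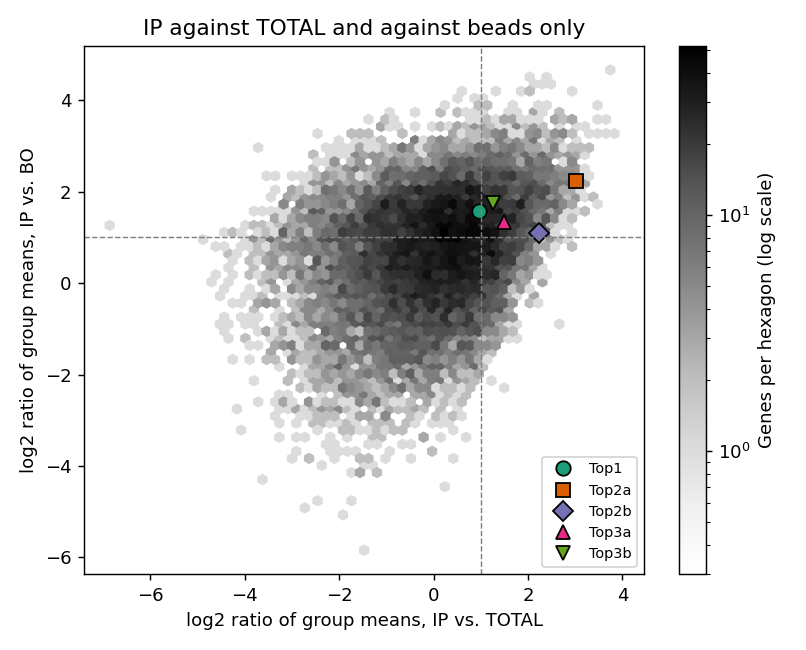
Log2 ratio in IP vs. BO (vertical) against that in IP vs. TOTAL (horizontal); grey hexagons count genes on a log colour scale, symbols mark the topoisomerase genes and dashed lines mark 2-fold. *Top2a* lies at 3.01 and 2.23, far to the upper right, and *Top2b* at 2.23 and 1.09, to the right but just above the horizontal threshold.

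Placing the groups on 1 scale shows at which step each gene differed. From TOTAL to INPUT, the log2 ratio was 0.90 for *Top2a*, 0.81 for *Top3a*, 0.54 for *Top3b*, 0.22 for *Top2b* and -0.46 for *Top1*. Over the 13337 genes with a level of at least 10 in TOTAL, INPUT and BO, the median was -0.13, and 3.88% of genes had a higher value than *Top2a*. From INPUT to BO, *Top2b* alone among the members had a higher level on the beads on this scale, with a log2 ratio of 0.92. *Top2a* was at -0.11, *Top1* at -0.16, *Top3a* at -0.67 and *Top3b* at -1.04, beside a median of -0.53 over genes. For *Top2b*, 10.4% of genes had a higher ratio of BO to INPUT. For *Top2a* it was 35.7%, for *Top1* 37.0%, for *Top3a* 55.2% and for *Top3b* 68.5%. The order of BO and INPUT depends on the scaling. With the median gene of each comparison set to 0, *Top2a* was at 1.42 against BO and 1.97 against INPUT. *Top1* was at 0.78 and 1.28, so both also had a higher level in BO than in INPUT. The similar ratios of *Top2a* and *Top2b* in IP vs. INPUT therefore stood beside a higher level of *Top2b* on beads without antibody, and the low ratio of *Top2b* in IP vs. BO holds the same difference. BO libraries were made from the RNA yield of a volume matched to IP, so these levels compare the make-up of the RNA and not its amount.

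The ratio of *Top2a* to a paralog within a group does not depend on how the libraries were scaled. Per kb, *Top2a* was 2.67 times *Top2b* in TOTAL, 4.25 times in INPUT, 2.08 times in BO and 4.59 times in IP. The choice of length moves these values: per kb of coding sequence they were 1.42, 2.27, 1.11 and 2.44, and per kb of the median annotated transcript *Top2a* and *Top2b* were nearly level in BO, with a log2 ratio of -0.0054. To *Top1*, the ratio was 1.58 in TOTAL, 4.05 in INPUT, 4.18 in BO and 6.52 in IP. To *Top3a* it was 9.02 in TOTAL, 9.55 in INPUT, 14.0 in BO and 26.0 in IP, and to *Top3b* it was 9.25, 11.8, 22.5 and 31.1. Each of these ratios was highest in IP. Length moves them too: in TOTAL their log2 values were 0.66 to *Top1*, 3.17 to *Top3a* and 3.21 to *Top3b*. Per kb of the median annotated transcript they were 1.93, 5.36 and 3.92. The log2 ratio of *Top2a* exceeded that of *Top2b* by 1.14 against BO, by 0.11 against INPUT and by 0.78 against TOTAL. It exceeded that of *Top1* by 0.64, 0.69 and 2.05 in the same comparisons. The excess over *Top3a* was 0.89, 1.45 and 1.53, and that over *Top3b* was 0.47, 1.39 and 1.75. The smallest of these differences, against *Top2b* in IP vs. INPUT, amounts to 1.08-fold.

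Taking the 3 log2 ratios of a gene as its pattern, *Top3a* and *Top3b* were the most alike of the members, with a Euclidean distance of 0.48. *Top2a* was nearest to *Top2b* among the members, at 1.39, yet 447 of the 9323 genes whose mean reached 100 in each comparison were nearer to *Top2a* than that. Among the 5 nearest genes were *Ect2* (distance 0.19), *Ttc21b* (0.19), *Nol8* (0.20) and *Pkhd1* (0.30). *Ect2* encodes an activator of RHOA in cytokinesis. *Ect2* had log2 ratios of 2.13 against BO, 2.18 against INPUT and 2.86 against TOTAL. The 3 genes nearest to *Top2b* were *Ccne2* (0.17), which encodes cyclin E2, *Tbk1* (0.17) and *Trp63* (0.18). Each distance rests on 3 ratios of 4 group means.

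Long transcripts had higher ratios in IP vs. TOTAL, and *Top2a* and *Top2b* have long transcripts, whereas *Top1*, *Top3a* and *Top3b* are near the middle of all genes. In 10 groups of equal size by longest transcript, the median log2 ratio went from -1.65 in the shortest group (64 to 1392 nt) to 0.78 in the longest (6851 nt and more). *Top2a* fell in a group of 4472 to 5267 nt with a median of 0.34, and 0.572% of the 1399 genes in it had a higher ratio. For *Top2b*, in the longest group, 4.0% had a higher ratio. *Top1*, *Top3a* and *Top3b* shared a group of 3385 to 3893 nt with a median of 0.11, in which 21.3%, 10.1% and 13.9% of genes were higher. All 5 genes thus lay above the median for their length. The part that length has in these ratios was not tested.

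**Figure D4:**
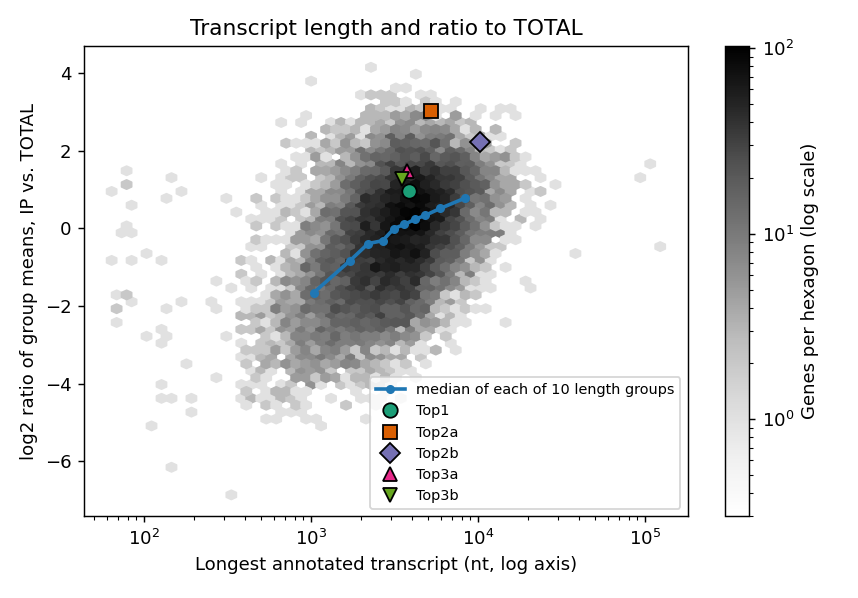
Log2 ratio of group means in IP vs. TOTAL against the longest annotated transcript (nt, log axis) for the genes compared; hexagons count genes on a log colour scale, the blue line joins the medians of 10 length groups and symbols mark the topoisomerase genes. *Top2a*, at 5221 nt and 3.01, stands above the line by more than *Top2b*, at 10335 nt and 2.23.

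RNA of the young L1 families, which encodes ORF1p and is bound by it, gives a scale for these values in the same tables. Summed over 6562 loci, L1Md_A had 4337 normalized counts in TOTAL and 14890 in IP, a log2 ratio of 1.78, and its ratio was 1.85 against BO and 1.70 against INPUT. L1Md_T, over 9583 loci, was at 1.70 against BO, 1.75 against INPUT and 1.76 against TOTAL. *Top2a* was above these sums in all 3 comparisons. *Top2b* was above them against INPUT and TOTAL and below them against BO, and *Top1* and *Top3a* were below them throughout. *Top3b*, at 1.76 against BO, lay between L1Md_T and L1Md_A there and was below both against INPUT and TOTAL. Reads of young L1 copies map to many places, so locus sums are uncertain.

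Genes that work with the topoisomerases were described from 6 lists. Of 5 other genes named for topoisomerases or related to them, 2 were above 2-fold against BO, 3 against INPUT and 2 against TOTAL. Of all genes, 43.9%, 20.5% and 20.4% were above 2-fold in the same comparisons. Shifted to the median gene (0.81 against BO), only *Spo11* stayed above 2-fold against BO. Unless said otherwise, values of the lists are given without this shift. *Spo11*, whose topoisomerase VI-like protein makes the breaks that start meiotic recombination, was at 2.98, 2.20 and 2.97 in these comparisons, close to *Top2a* against INPUT and TOTAL, with a level of 202 in TOTAL and 1596 in IP. *Gm960*, a symbol of the gene for its TOPOVIBL partner, was at 1.12, 0.22 and 0.77. *Topbp1*, which encodes a checkpoint protein and no topoisomerase, was at 0.83, 1.68 and 2.56. *Topors*, for a ubiquitin and SUMO ligase that binds TOP1, was at 0.53, 1.02 and 0.99. *Top1mt*, for the mitochondrial type IB enzyme, was the 1 gene of this list past 2-fold in the other direction, at -1.29 in IP vs. TOTAL, where *Top1* was at 0.97.

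Of 7 partners and related helicases of TOP3A, 5 were above 2-fold against BO, 3 against INPUT and 4 against TOTAL, with 0 past 2-fold in the other direction. The shares of all genes above 2-fold were 43.9%, 20.5% and 20.4%. Shifted to the median gene (0.81 against BO), only *Recql* stayed above 2-fold against BO. The median log2 ratio of the list, without this shift, was 1.25, 0.62 and 1.23. *Blm*, which encodes the Bloom helicase, was at 1.15, 1.11 and 1.78. *Rmi1* and *Rmi2*, for the small subunits of the complex, were at 0.96 and 0.53 in IP vs. TOTAL. *Recql*, for another RecQ helicase, had the highest values of the list, at 1.87, 1.76 and 2.07. *Recql4* and *Recql5* passed 2-fold against BO and TOTAL, at 1.23 and 1.46 against TOTAL. Of the 4 TOP3B partners, 3 were above 2-fold against BO, 2 against INPUT and 3 against TOTAL. Against BO these were *Fmr1* at 1.23, *Fxr1* at 1.80 and *Fxr2* at 1.57. Each of them fell below 2-fold there when shifted to the median gene. *Tdrd3*, whose protein holds TOP3B, was at -0.02, 0.50 and 0.62 and did not pass in any. The fragile X family genes *Fmr1*, *Fxr1* and *Fxr2* were at 2.03, 1.47 and 1.18 in IP vs. TOTAL.

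Topoisomerases that become stuck on DNA are removed by dedicated enzymes. Of 11 genes of this repair, 9 were above 2-fold against BO, 5 against INPUT and 6 against TOTAL. *Tdp2*, whose enzyme frees type II topoisomerases from DNA ends, was at 1.69 against BO, 1.87 against INPUT and 1.39 against TOTAL. *Tdp1*, which does so for TOP1, was at 1.68, 0.60 and 0.53. *Rad50*, *Mre11a* and *Rbbp8*, which process broken ends, were at 1.69, 1.39 and 1.84 in IP vs. TOTAL. *Zfp451*, for a SUMO ligase that assists TDP2, had the lowest value of the list in IP vs. BO, at -0.80.

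Condensins shape mitotic and meiotic chromosomes beside TOP2A. Of the 8 condensin genes, 8 were above 2-fold against BO, 6 against INPUT and 7 against TOTAL, with medians of 1.60, 1.61 and 2.35. Among all genes, 43.9%, 20.5% and 20.4% were above 2-fold in these comparisons. Shifted to the median gene (0.81 against BO), only *Smc4*, *Ncapg* and *Ncaph* stayed above 2-fold against BO. *Ncaph*, for the kleisin subunit of condensin I, was at 2.56, 2.27 and 2.79, and *Smc4*, for a core ATPase subunit, at 2.72, 2.38 and 2.48. *Ncaph2*, the kleisin of condensin II, was at 1.66, 0.00 and -0.03, and *Ncapd2*, for another condensin I subunit, was also under 2-fold against INPUT, at 0.83. Of 8 other genes of dividing cells, 7 were above 2-fold against BO, 7 against INPUT and 4 against TOTAL. With the same shift, only *Bub1*, *Aurkb* and *Ccnb1* stayed above 2-fold against BO. *Bub1*, for a spindle checkpoint kinase, was at 2.95, 2.19 and 2.74, and *Mki67*, a marker of dividing cells, at 1.30, 1.87 and 2.06. *Aurkb* and *Cdk1*, for mitotic kinases, were at -0.33 and 0.03 in IP vs. TOTAL. *Top2a* had a higher ratio in IP vs. TOTAL than each gene of the 6 lists, the nearest being *Spo11*. These counts describe group means beside the backgrounds given above, and no list was tested.

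**Figure D5:**
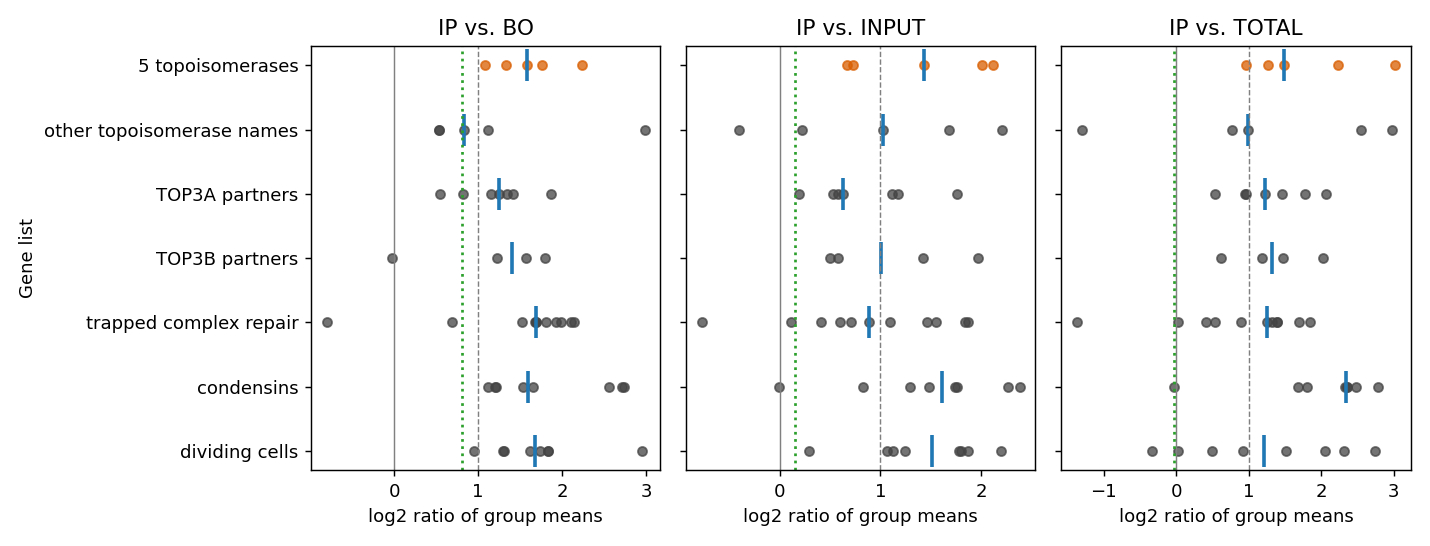
Log2 ratio of group means for the 5 topoisomerase genes (orange) and the genes of 6 lists (grey) in the 3 comparisons; blue bars mark the median of a list, the green dotted line the median over all genes, the dashed line 2-fold and the solid line no difference. The condensin genes have the highest list median in IP vs. TOTAL, at 2.35, and *Top2a* is the rightmost point there, at 3.01.

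RNA of cell types was also distributed unevenly between the groups. The summed level of 6 spermatocyte genes was 19768 in TOTAL, 19960 in INPUT, 10866 in BO and 124449 in IP, and all 6 were above 2-fold in each comparison, from 1.02 for *Spag6* to 2.92 for *Sycp1* in IP vs. TOTAL. The summed level of 5 spermatogonia genes was 6285 in TOTAL, 5847 in INPUT, 8322 in BO and 3796 in IP. Those of 5 Sertoli cell genes were 73133, 81743, 29892 and 23540, and those of 5 Leydig cell genes were 77573, 42178, 7401 and 15226 in the same order. *Clu* made up most of the Sertoli cell sum, at 66084, 78062, 22440 and 20786. By contrast, *Sox9* and *Wt1* were higher in BO than in TOTAL, *Sox9* at 2423 and 1591 and *Wt1* at 4913 and 3781. *Kit* made up most of the spermatogonia sum in BO, at 5870 beside 2147 in TOTAL. *Zbtb16* and *Sall4* were also higher in BO than in TOTAL. *Dmrt1* and *Stra8* were lower, *Dmrt1* at 495 in BO and 2506 in TOTAL and *Stra8* at 120 and 779. In IP vs. TOTAL, 0 genes of these lists were above 2-fold, while 1 spermatogonia gene, 4 Sertoli cell genes and 5 Leydig cell genes were past 2-fold in the other direction, beside 20.4% and 26.2% of all genes. Against INPUT, 0 were above 2-fold, and 1 spermatogonia gene, 3 Sertoli cell genes and 4 Leydig cell genes were past it in the other direction, beside 20.5% and 14.6%. Against BO, where 43.9% of all genes were above 2-fold and 11.2% past it in the other direction, the counts above were 1 of 5 spermatogonia genes (*Stra8*, at 2.07), 0 Sertoli cell genes and 2 of 5 Leydig cell genes, and the counts in the other direction were 2, 2 and 0. The 3 macrophage and vessel genes in the table summed to 512 in TOTAL and 194 in IP, with 2 of them past 2-fold lower in IP than in TOTAL, 2 lower than in INPUT and 2 higher than in BO. The spermatid genes *Prm1*, *Prm2*, *Tnp1*, *Tnp2* and *Acrv1* lay between 11.7 and 39.3 normalized counts in TOTAL and below 1 in IP. The part of cell type in the ratios of the topoisomerase genes was not tested, and marker levels in preparations of an extract do not count cells.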

How the data were processed

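Testis RNA of TOTAL, INPUT, BO and IP samples was sequenced as 75 nt single reads by the authors, mapped to mm10 with STAR 2.6.0c and normalized with DESeq2 1.24.0, versions as in the submitters' processing notes. The gene counter and annotation are not given in the sources used here. The deposited signal used here is the authors' mean normalized count of each group (3 libraries), in 3 tables of 802920 rows for genes and repeat loci. Other columns hold the authors' fold changes, standard errors and p-values, and were not used. The table of repeat subfamilies holds no genes and was not used.

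Rows of genes were compared as log2 ratios of group means with a pseudocount of 1, over genes whose mean over the compared groups reached 10, in Python 3.11.15 with pandas 2.3.3. Depth is unknown. The tests on values per library that the design allowed for could not be run. The ratio step was tested on simulated data. Lengths, positions and sequences came from GENCODE M21 transcripts, with alignment by Biopython 1.88. Repeat loci carry no coordinates in the tables and were not placed in the genes.

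Named genes are the 5 members, list genes past 2-fold or direct partners, and the genes nearest to *Top2a* and *Top2b*. Other list genes named were chosen after their values were seen. A few genes that this rule covers are not reported here. Members and lists were chosen with earlier results of these data known. Alternatives were pseudocounts of 0.1 and 10, other filters, 3 scalings and other transcript lengths.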

Additional observations from a re-analysis of the deposited data

How the results depend on the processing

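The ratios of the 5 topoisomerase genes kept their direction in all 75 alternative values and their side of 2-fold in 68. The exceptions were in IP vs. BO. Shifted to the median gene, the log2 ratio was 0.78 for *Top1*, 0.28 for *Top2b*, 0.53 for *Top3a* and 0.95 for *Top3b*, and shifted to equal upper quartiles it was 0.91 for *Top1*, 0.41 for *Top2b* and 0.66 for *Top3a*. *Top2a* stayed above 2-fold in all of them. The shift to the median gene removed 0.81 against BO, 0.15 against INPUT and -0.03 against TOTAL. Counts of all genes past 2-fold moved with the scaling, for these counts an alternative added after the data were seen. Higher in IP than in BO were 2503 genes with the median gene at 0 and 3027 with equal upper quartiles, and lower were 3291 and 2938. Higher than in INPUT were 1604 with equal upper quartiles and 1701 with equal sums, and lower were 3533 and 3368. With a filter at a mean of 100, 1163 genes were past 2-fold in favour of INPUT and 2437 in favour of TOTAL. Per median transcript length, which takes in the short annotated forms, the log2 ratio of *Top2a* to *Top2b* was 0.36 in TOTAL and -0.0054 in BO, and that of *Top2a* to *Top1* in TOTAL was 1.93. Per coding length, added after the data were seen, the ratio to *Top2b* was 0.51 in TOTAL and 0.15 in BO. With a pseudocount of 10, *Pkhd1*, *Tbk1* and *Trp63* were no longer among the nearest genes. No paired analysis was possible because the tables hold group means, and for the same reason no replicate could be left out. The ratios are given without an error.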
